A study of Mus musculus with 48 samples.

Results

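Hepatocyte-specific loss of PPARα was compared with the wild type in the livers of male mice fed a low-fat control diet (CTRL), with 8 Pparα hep-/- mice against 8 WT mice, 1 array each. These 16 arrays, chosen by their genotype and diet labels, are part of a series of 48 that also holds whole-body Pparα-/- mice and a high-fat diet (HFD). Pparα hep-/- mice carried floxed Ppara alleles, and Cre recombinase driven by the albumin promoter, which is active in hepatocytes, deleted exon 4. WT mice were C57BL/6J mice of the same age bought from a supplier, whereas the knockout lines were bred in the institute, so genotype and source of the mice cannot be told apart, and no floxed mice without Cre were in the series. Per the labels all 16 mice were 20 weeks old after 12 weeks of the diet, although the study's text gives a shorter feeding time. All were kept at thermoneutral temperature and killed in the fed state. The study asked what PPARα of hepatocytes contributes to fatty liver in diet-induced obesity, and the control diet gives the genotype difference without the high-fat diet. The livers were not free of fat, since the study reported steatosis in Pparα hep-/- mice on the control diet too. Below, the effect of the deletion stands for this genotype difference.

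PPARα is a nuclear receptor for fatty acids. It pairs with the retinoid X receptor (RXR) on DNA and switches on the genes that carry fatty acids into mitochondria and peroxisomes and break them down by β-oxidation, along with those of ketone body synthesis and the fasting hormone FGF21. In liver it is most active during fasting, when fatty acids arrive from adipose tissue, and in fed mice on a low-fat diet its activity is thought to be low.

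Each array had 30956 to 38217 spots well above background, and 33321 probes were tested. All 9 hepatocyte markers were well above background on all 16 arrays. In the model, which weights each array by how well it fits, 2 arrays stood apart: Pparα hep-/- replicate 1, with a weight of 0.189, and WT replicate 6, with a weight of 0.208. The wash batch of the labels held 3 Pparα hep-/- and 4 WT arrays in batch 1 and 5 and 4 in batch 2.

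On CTRL, 8242 of the 33321 probes (24.7%) were called with limma (adjusted p no higher than 0.05), 3765 (11.3%) higher and 4477 (13.4%) lower in Pparα hep-/- mice. Most differences were small, with a median absolute log2 fold change of 0.34 among the called probes. At least 1 on the log2 scale was reached by 438 called probes (1.31% of those tested), and at least 2 by 54. The values of the 8 Pparα hep-/- and the 8 WT mice did not overlap for 430 called probes (1.29%), 169 higher (0.507%) and 261 lower (0.783%). The count was 5515 without array weights, 6320 with only the 16 CTRL arrays in the fit, 6348 without the filter on dim probes, 8508 without both low-weight arrays, 6692 without these and without weights, and 3682 and 3049 within wash batches 1 and 2.

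The HFD mice are other animals, so the same genotype contrast was measured there again. Of the 8242 probes called on CTRL, 2729 (33.1%) were also called in the same direction on HFD, 244 were called in the opposite direction and 5269 were not called. The 2729 fell to 1353 without array weights, 1690 without the filter on dim probes, and 544 and 1137 within wash batches 1 and 2. Among the 430 probes whose CTRL mice did not overlap, 302 (70.2%) were called in the same direction on HFD and 2 in the opposite one. On both diets the mice did not overlap for 103 probes (0.309% of those tested), 28 higher and 75 lower. Over all probes 26.7% were called on HFD, 13.3% higher and 13.4% lower, which are the shares for a call in 1 given direction. The effect of the deletion differed between diets for 3472 probes (10.4%). That count rests on the array weights. It was 298 without them, 972 without them and without both low-weight arrays, 1226 without the filter, and 1319 and 166 within wash batches 1 and 2. Of 23 probes of named genes that differed between diets, all kept their sign without array weights and 7 passed the test, those of Acss2, Fam89a, Msmo1, Psmb9, Serpinb1a, Sqle and Srgap3; the other 16 no longer passed. That check of named genes was chosen after seeing the data.

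Ppara itself was measured by a pair of probes on chromosome 15 (mm9). At the brighter probe, chr15:85632110-85632169, the log2 signal ranged from 13.26 to 14.28 (median 14.11) in Pparα hep-/- mice and from 14.03 to 15.07 (median 14.54) in WT mice. The groups overlapped, and the log2 fold change was -0.42 ± 0.10 (SE; limma adjusted p = 0.000887). Within wash batches 1 and 2 it was -0.42 and -0.40 and did not pass the test (adjusted p = 0.0608 and 0.0644). At the other probe, chr15:85637193-85637252, the signal ranged from 11.77 to 12.95 against 12.36 to 13.24, with a log2 fold change of -0.10 ± 0.09 (adjusted p = 0.454). On HFD both probes were lower without overlap, by -0.85 and -0.68 on the log2 scale, and both differed between diets (adjusted p = 0.0290 and 0.00234). Without array weights the differences between diets were -0.22 and -0.37 and did not pass the test (adjusted p = 0.602 and 0.295). At both probes the lowest Pparα hep-/- value on CTRL was that of the low-weight replicate 1. The files do not say whether either probe lies in the deleted exon, so the probes do not test recombination. The array measures RNA of the whole liver, in which fewer cells of a type and less RNA per cell cannot be told apart.

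Several enzymes of mitochondrial β-oxidation were lower in every Pparα hep-/- mouse than in any WT mouse, on both diets. Of 23 tested genes of this list 8 were lower and 7 higher, against 12.9% lower and 12.3% higher over all genes with 1 probe each (25.2% called in all), and the 8 that were lower were also called lower on HFD. These shares over all genes are also the measure for the CTRL counts of the lists below. Of the 7 genes of the β-oxidation list that were higher, Pdk4 alone was also called higher on HFD, where 12 genes of the list were lower and 1 higher. Pdk4 is counted with this list but is a kinase of pyruvate dehydrogenase, not an enzyme of β-oxidation. The median log2 fold change was 0.0083 on CTRL and -0.23 on HFD, and 4 of the 23 differed between diets, none of them without array weights. Eci2, an isomerase for unsaturated fatty acids, ranged from 13.77 to 14.32 (median 14.04) in Pparα hep-/- mice and from 14.88 to 15.85 (median 15.23) in WT mice. The groups did not overlap, and the log2 fold change was -1.25 ± 0.09 (adjusted p = 4.89e-14).

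Acadvl, the first dehydrogenase for very long chains, ranged from 14.54 to 15.06 (median 14.70) against 15.62 to 15.84 (median 15.72), a log2 fold change of -1.05 ± 0.07 (adjusted p = 2.23e-16). Etfdh and Etfb, which pass the electrons of these dehydrogenases to the respiratory chain, were lower by -0.94 ± 0.09 and -0.68 ± 0.05. In all of these the 8 mice of each genotype were separate, and the HFD values were -1.32 for Eci2, -0.85 for Acadvl, -1.13 for Etfdh and -0.71 for Etfb. Hadha, a subunit of the trifunctional protein, was lower by -0.35 ± 0.07, with all 8 Pparα hep-/- mice below the WT mean, a call that was lost without the wash batch term (adjusted p = 0.109).

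The carnitine shuttle, which moves long-chain fatty acids across the inner mitochondrial membrane, had 3 of 9 tested genes lower and 1 higher. Slc25a20, the carnitine-acylcarnitine carrier, ranged from 8.73 to 9.65 (median 9.36) against 10.16 to 10.64 (median 10.37), without overlap, a log2 fold change of -1.08 ± 0.14 (adjusted p = 1.14e-07). Cpt2, the inner-membrane transferase, was lower by -0.86 ± 0.10 (adjusted p = 7.91e-09), also without overlap. Cpt1a, the outer-membrane enzyme that limits the pathway, did not pass the test, at 0.31 ± 0.15 (adjusted p = 0.134), nor did the medium-chain dehydrogenase Acadm, at 0.24 ± 0.11 (adjusted p = 0.0961). Cpt1a was called higher without Pparα hep-/- replicate 5 (adjusted p = 0.0251), and Acadm with processed signals and with only the 16 CTRL arrays in the fit (adjusted p = 0.0309 and 0.0455).

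**Figure D1:**
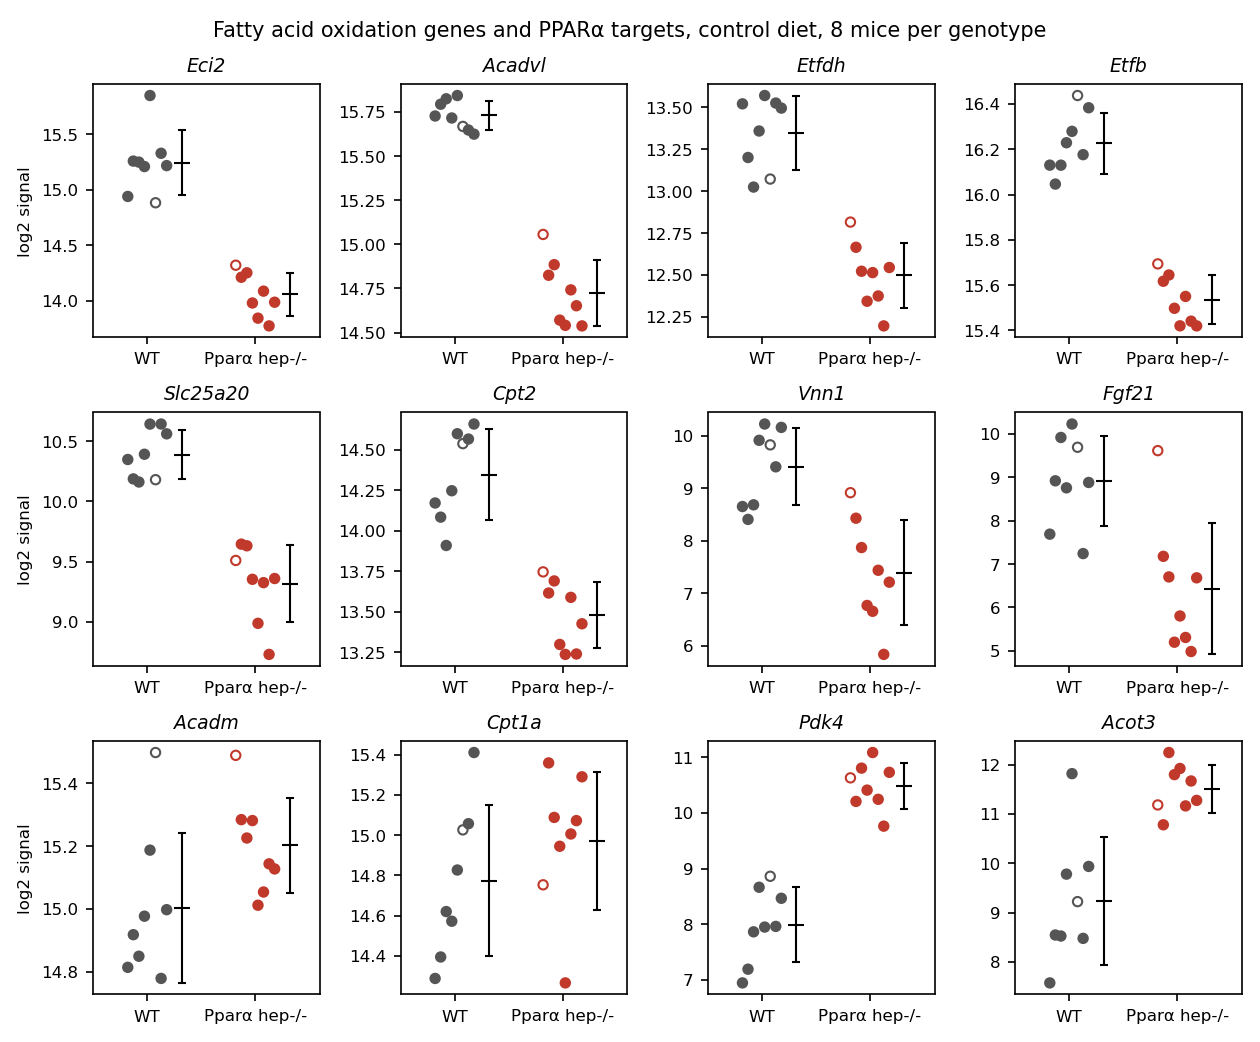
Log2 signal of 12 genes in each mouse on the control diet (y axis), for WT (grey) and Pparα hep-/- mice (red); open circles are the 2 arrays of low weight, and the bars give the mean ± SD of 8 mice. The genotypes are separate for Eci2, Acadvl, Etfdh, Etfb, Slc25a20, Cpt2 and, in the other direction, Pdk4; they overlap for Vnn1, Fgf21, Acadm, Cpt1a and Acot3.

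In peroxisomes 8 of 40 tested genes were lower and 6 higher, the latter 3 without WT replicate 3, 11 without WT replicate 7 and 2 either without array weights or with only the 16 CTRL arrays in the fit. Amacr, a racemase for branched chains whose gene lies on chromosome 15 as Ppara does, was lower by -1.25 ± 0.22 (adjusted p = 2.80e-05), from 13.10 to 14.38 in Pparα hep-/- mice against 14.49 to 14.97 in WT mice. On HFD its value was -0.39 and did not pass the test. Ehhadh, the peroxisomal bifunctional enzyme and a classical marker of PPARα activity, did not pass the test on CTRL, at 0.45 ± 0.18 (adjusted p = 0.0604). It lay close to the threshold and was called higher in 6 of 30 alternatives: without WT replicate 6 or 8 or Pparα hep-/- replicate 3 or 6, with the authors' log2 values and with a stricter filter, with the lowest adjusted p at 0.0217 (without WT replicate 8).

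The fatty acid ω-hydroxylases Cyp4a10 and Cyp4a14, among the strongest PPARα targets, had log2 fold changes of 0.71 ± 0.55 and 0.37 ± 0.41 (adjusted p = 0.380 and 0.559), and 2 of the 12 tested Cyp4 genes were lower. That count was 0 without WT replicate 1, 5 or 7 or Pparα hep-/- replicate 2, 3 or 8, and 1 without WT replicate 2, 3 or 8 or Pparα hep-/- replicate 1. It was also 0 with only the 16 CTRL arrays in the fit, where 2 Cyp4 genes were called higher, with processed signals, without the filter and within wash batch 1. Cyp4a10 ranged from 9.80 to 12.57 in Pparα hep-/- and from 8.58 to 11.82 in WT mice, so the spread within a genotype was larger than the difference. On HFD Cyp4a10 was lower, at -1.59 (adjusted p = 0.0145), and its effect differed between diets (adjusted p = 0.0391), but not without array weights (adjusted p = 0.321).

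Fgf21, the fasting hormone, was much lower. Its log2 signal ranged from 4.98 to 9.61 (median 6.24) in Pparα hep-/- mice and from 7.24 to 10.23 (median 8.90) in WT mice, with a log2 fold change of -2.85 ± 0.41 (adjusted p = 1.39e-06). It was well above background in 4 of 8 Pparα hep-/- and in 8 of 8 WT mice, its value ranged from -4.65 to -1.93 over the alternatives, and the highest Pparα hep-/- value was that of the low-weight replicate 1. Vnn1, a pantetheinase long used as a PPARα target, ranged from 5.84 to 8.91 (median 7.32) against 8.41 to 10.22 (median 9.61), a log2 fold change of -2.12 ± 0.37 (adjusted p = 3.17e-05). On HFD Fgf21 was lower by -1.48 and Vnn1 by -2.88.

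Of 17 tested secreted and vanin targets 7 were lower and 6 higher. Igfbp2, an insulin-like growth factor binding protein, was lower without overlap, by -1.14 ± 0.35 (adjusted p = 0.0121), a call lost within wash batches 1 and 2, at -0.62 and -1.52 (adjusted p = 0.371 and 0.0560). Angptl4, an inhibitor of lipoprotein lipase and a PPAR target in many tissues, did not pass the test, at -0.23 ± 0.24 (adjusted p = 0.532).

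Among proteins of the lipid droplet 6 of 20 tested genes were lower and 5 higher, the latter 3 without WT replicate 2 or 3. Plin5, a droplet coat protein of oxidative tissue, ranged from 11.30 to 12.34 (median 12.07) in Pparα hep-/- and from 13.07 to 13.66 (median 13.47) in WT mice, without overlap, a log2 fold change of -1.48 ± 0.33 (adjusted p = 0.000710). On HFD Plin5 was at -0.38 and did not pass the test. Fitm1, which partitions triglyceride into droplets, was lower by -1.05 ± 0.35 (adjusted p = 0.0214) on CTRL and by -2.71 on HFD, and the effects differed (adjusted p = 0.0189). Without array weights the difference between diets did not pass the test (adjusted p = 0.284). The call for Fitm1 on CTRL was lost without array weights (adjusted p = 0.0719), with processed signals (0.0574), without the filter on dim probes (0.0543) and without WT replicate 4 or 1 (0.0653 and 0.0576). Plin2 and Cidec, droplet proteins that rise with fat storage, had values of 0.04 ± 0.20 and 0.55 ± 0.62 and did not pass the test.

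Pdk4, the kinase that turns pyruvate dehydrogenase off and so spares glucose, ranged from 9.76 to 11.09 (median 10.52) in Pparα hep-/- mice and from 6.94 to 8.86 (median 7.95) in WT mice. The genotypes did not overlap, and the log2 fold change was 2.69 ± 0.34 (adjusted p = 1.30e-07). On HFD it was 1.47 (adjusted p = 0.000411), where the ranges overlapped, and the difference between diets did not pass the test (adjusted p = 0.0832).

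The acyl-CoA thioesterases, which release fatty acids from coenzyme A, had 7 of 14 tested genes higher and 2 lower, with a median log2 fold change of 0.73 against -0.0037 over all genes. Acot3 ranged from 10.78 to 12.24 (median 11.47) against 7.57 to 11.82 (median 8.88), a log2 fold change of 2.27 ± 0.58 (adjusted p = 0.00286). Acot2 was higher by 1.83 ± 0.36 and Acot1 by 1.82 ± 0.49 (adjusted p = 0.000179 and 0.00468). On HFD the values of Acot3, Acot2 and Acot1 were 0.06, 0.38 and -0.31, none of which passed the test, and the difference between diets did for Acot2 and Acot1 (adjusted p = 0.0488 and 0.0319). Without array weights neither difference passed (adjusted p = 0.593 and 0.451). These 3 genes are near-identical neighbours on chromosome 12, and a probe for 1 of them may also bind the RNA of another.

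Cd36, a fatty acid transporter of the plasma membrane, was higher by 1.84 ± 0.30 (adjusted p = 1.27e-05), with 9.64 to 11.15 (median 10.44) against 7.4 to 10.21 (median 8.41). Pparg, the PPAR of fat storage, was higher by 0.95 ± 0.25 (adjusted p = 0.00341), and by 0.72 on HFD. Fabp1, the abundant liver fatty acid binding protein, did not pass the test, at 0.02 ± 0.06.

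Serpinb1a, an inhibitor of neutrophil-type serine proteases, ranged from 10.66 to 12.89 (median 11.86) in Pparα hep-/- and from 6.69 to 8.04 (median 7.81) in WT mice, a log2 fold change of 4.41 ± 0.30 (adjusted p = 4.99e-15). Gdpd3, a lysophospholipase D, ranged from 8.97 to 11.41 (median 10.27) against 5.36 to 6.29 (median 5.87), a log2 fold change of 4.28 ± 0.30 (adjusted p = 7.94e-15). Neither gene's groups overlapped. On HFD Serpinb1a was higher by 2.03, less than on CTRL (adjusted p of the difference = 0.000224), and Gdpd3 by 4.87.

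For 2 of the 12 largest increases among genes or transcripts whose mice did not overlap, the WT mice were not well above background on any array. There the increase is given as a bound against the dimmest probes that were: Serpinb1c was at least 4.36-fold and Ttc13 at least 3.82-fold higher in Pparα hep-/- mice. The other increases in this set that carry gene names were Fam89a (2.74 ± 0.25), the water channel Aqp4 (2.30 ± 0.27), Lratd2 (2.24 ± 0.26), Adam11 (2.02 ± 0.21), the GTPase regulator Srgap3 (1.80 ± 0.24) and the organic anion transporter Slco1a4 (1.63 ± 0.26). Fam89a and Srgap3 had values of 0.45 and -0.35 on HFD that did not pass the test, and both differed between diets (adjusted p = 3.22e-05 and 7.27e-05).

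In the other direction the non-coding transcript AK035950 ranged from 4.85 to 8.06 (median 5.10) in Pparα hep-/- mice, where 1 of 8 arrays was well above background, and from 8.90 to 10.11 (median 9.25) in WT mice. Its log2 fold change was -4.30 ± 0.43, a size that rests on signals near background and ranged from -7.36 to -3.48 over the alternatives, and it was -1.37 on HFD (adjusted p of the difference = 0.00110). Without array weights that difference between diets did not pass the test (adjusted p = 0.0630). Slx1b, a subunit of a DNA nuclease, was lower by -3.20 ± 0.62, with 3 of 8 Pparα hep-/- arrays well above background, and the call was lost within wash batch 1 (adjusted p = 0.0555). This size too rests on signals near background, and it ranged from -5.00 to -2.65 over the alternatives.

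The other decreases in this set with gene names were Ankrd33b (-2.76 ± 0.29), the chemokine Ccl27a (-2.46 ± 0.42, and -1.23 within wash batch 1), Cdpf1 (-2.40 ± 0.11), the synaptic priming factor Unc13b (-2.27 ± 0.35), the pro-apoptotic Bik (-2.22 ± 0.13), Mfsd2a, a transporter of lysophosphatidylcholine (-2.16 ± 0.48), the ubiquitin ligase Rnf186 (-2.16 ± 0.30) and the transaminase Kyat3 (-2.04 ± 0.24). Dpys, a pyrimidine-degrading enzyme, had 1 probe at -2.74 ± 0.44 and another at 1.23, and was the only gene whose probes disagreed in this way without overlap. All of the decreases but Mfsd2a were also called on HFD.

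Over the alternatives the log2 fold change of some of these genes moved by more than 1.5 times as a fold, with all values past the test unless named otherwise. Gdpd3 ranged from 3.74 to 5.56, Srgap3 from 1.54 to 2.56, Ankrd33b from -3.59 to -2.31, the lower Dpys probe from -3.39 to -2.39, Unc13b from -2.59 to -1.50, Bik from -2.94 to -1.86 and Mfsd2a, which did not pass within wash batch 2, from -2.58 to -1.54.

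**Figure D2:**
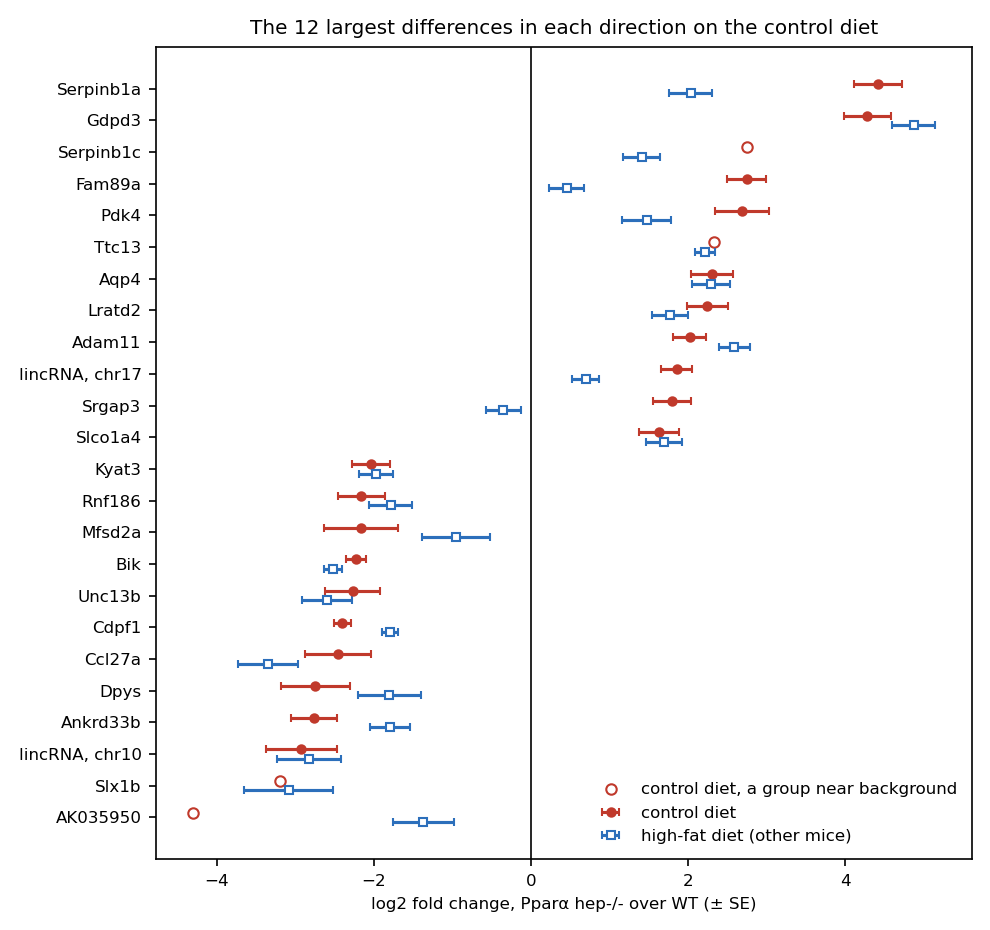
Log2 fold change ± SE of Pparα hep-/- over WT (x axis) for the 12 genes or transcripts with the largest difference in each direction on the control diet among those whose mice did not overlap (red circles), with the same genes in the HFD mice (blue squares). Open red circles, without SE, are Serpinb1c, Ttc13, Slx1b and AK035950, where 1 genotype was well above background on at most 3 of 8 control diet arrays, so that the plotted size is not a measured one. All 24 were chosen by their control diet value; on HFD, Srgap3 has a negative value of -0.35 and the other 23 keep their sign.

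Several of these genes are near neighbours. Fam89a and Ttc13 lie 32.2 kb apart on chromosome 8, Serpinb1a and its close copy Serpinb1c, whose RNA a probe may not tell apart, 41.5 kb apart on chromosome 13, and Gdpd3 and Slx1b, which moved in opposite directions, 81.4 kb apart on chromosome 7. Among the chromosomes, chromosome 15, which holds Ppara, had the highest share of called probes whose groups did not overlap, at 3.20% (41 of 1280) against 1.29% over all tested probes.

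Within 10 Mb of the Ppara probes 18 of 512 probes (3.52%) did not overlap, on the rest of chromosome 15 23 of 766 (3.0%), and elsewhere 389 of 32041 (1.21%). In the HFD mice as well, 12 of the 18 near probes, 4 of the 23 farther ones and 87 of the 389 elsewhere did not overlap. Cdpf1, whose probe starts at base 85637436 next to the second Ppara probe, ranged from 7.10 to 8.37 (median 7.26) in Pparα hep-/- and from 9.27 to 10.08 (median 9.78) in WT mice.

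The whole-body Pparα-/- mice, compared on CTRL with the same WT mice (34.2% of probes called), had -2.31 for Cdpf1, -1.72 for Bik and -1.52 for Cdc42ep1, a neighbour at -6.95 Mb with -1.58 in Pparα hep-/- mice. Gpaa1, at -9.47 Mb, had -0.24 in Pparα hep-/- mice. In the whole-body knockout it had -0.10, which did not pass the test (adjusted p = 0.183). The farther genes were not alike. For AK035950, Ankrd33b and Lratd2 the whole-body knockout values were -0.09, -0.08 and 0.50, none of which passed the test, against -4.30, -2.76 and 2.24 in Pparα hep-/- mice. Ncald, Cmbl and Larp4, also more than 10 Mb away, had called values of 1.48, 0.91 and -0.57 in the whole-body knockout, against 0.83, 1.59 and -0.39, and the probes of Dpys had -1.07, which did not pass the test, and 1.06, which did. Further far probes were called in the same direction in both, such as Med30 (0.35 against 0.69) and Washc5 (0.27 against 0.60). Both comparisons share the WT mice.

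**Figure D3:**
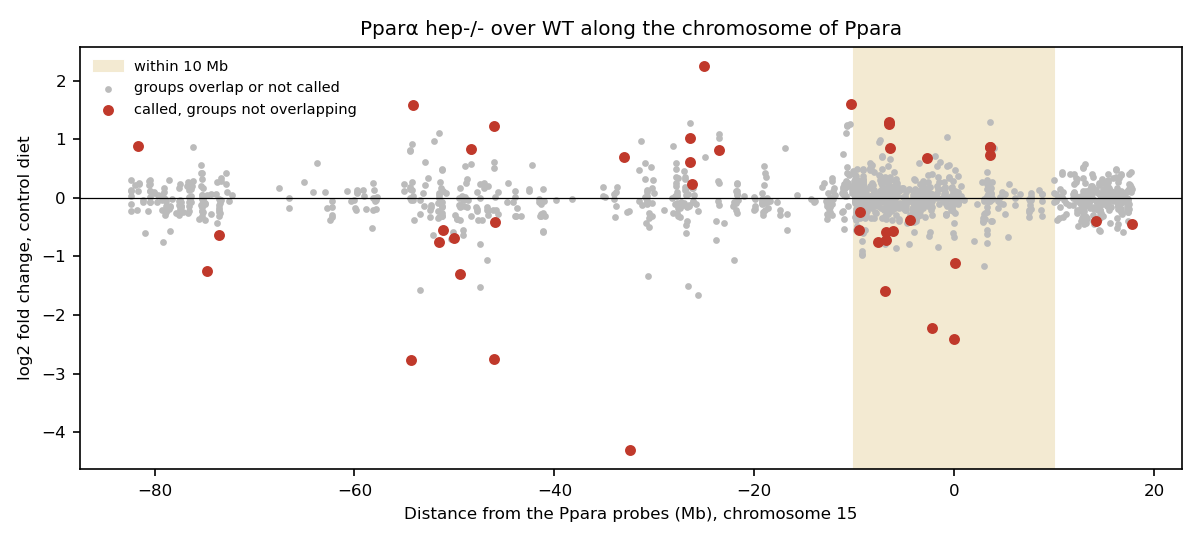
Log2 fold change of Pparα hep-/- over WT on the control diet (y axis) for each tested probe on chromosome 15, by distance in Mb from the Ppara probes (x axis); red points are called probes whose mice did not overlap, and the shaded band is the window of 10 Mb to either side. Red points near the centre include Cdpf1 at -2.40 and Bik at -2.22, and the lowest point, at -32.5 Mb, is AK035950 at -4.30.

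Chaperones and folding enzymes of the endoplasmic reticulum (ER) were mostly lower. Of 30 tested genes 24 were lower and 1 higher in Pparα hep-/- mice, with a median log2 fold change of -0.40. On HFD 4 were lower and 3 higher, where 13.4% of all probes were lower and 13.3% higher. The median there was -0.14, and 7 genes differed between diets, none of them without array weights. The unfolded protein response raises these genes when secretory proteins overload the ER.

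Derl3, of the ER degradation machinery, was lower by -1.58 ± 0.42 (adjusted p = 0.00402), Sdf2l1, a chaperone cofactor, by -1.19 ± 0.23 (adjusted p = 0.000164) and Creld2, a disulfide isomerase, by -1.17 ± 0.23 (adjusted p = 0.000159). Hspa5, the main chaperone of the ER lumen, ranged from 14.75 to 15.20 (median 14.98) against 15.07 to 15.95 (median 15.48), a log2 fold change of -0.60 ± 0.13 (adjusted p = 0.000644). The ranges of all of these overlapped. The count of lower genes was 23 without both low-weight arrays, 15 without array weights, and 12 and 9 within wash batches 1 and 2, where the median difference of means was -0.38 and -0.33.

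The ER stress response element, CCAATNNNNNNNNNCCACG on either strand, is the site through which ATF6 and XBP1 act on such genes. In the 250 bases before the RefSeq start (GRCm38.p6) it occurred in 37 of 32851 promoters (0.113%), and in 9 of the 27 list members with a promoter sequence. All 9 were called lower, as were 13 of the 18 members without it. The stretches that follow are those of the 4 called members with the largest change and of Hspa5, shown because they carry the element, which is in capitals.
Derl3, chr10:75893222-75893280, plus strand: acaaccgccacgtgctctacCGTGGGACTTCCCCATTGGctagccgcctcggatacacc
Creld2, chr15:88819500-88819558, plus strand: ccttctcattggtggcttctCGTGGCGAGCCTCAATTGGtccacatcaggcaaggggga
Syvn1, chr19:6046512-6046570, plus strand: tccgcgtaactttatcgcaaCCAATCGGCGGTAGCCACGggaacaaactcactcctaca
Pdia6, chr12:17266471-17266529, plus strand: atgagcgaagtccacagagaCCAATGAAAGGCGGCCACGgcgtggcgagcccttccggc
Hspa5, chr2:34772005-34772063, plus strand: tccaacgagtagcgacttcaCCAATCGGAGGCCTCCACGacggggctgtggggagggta
In Derl3 and Creld2 the element reads on the opposite strand, and it ends 25 bases before the start in Syvn1, the nearest of the 5, and 137 in Derl3, the farthest. The log2 fold changes of Syvn1 and Pdia6 were -0.85 and -0.60.

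Heat shock proteins had 10 of 20 tested genes lower and none higher, with a median of -0.25, and 10 and 4 were lower within wash batches 1 and 2. On HFD 4 were lower and 1 higher, and 5 differed between diets, none of them without array weights. Hsph1, a co-chaperone of HSP70, ranged from 10.21 to 11.05 (median 10.70) against 11.51 to 12.65 (median 12.05), without overlap, a log2 fold change of -1.49 ± 0.17 (adjusted p = 7.91e-09). Hsp90aa1, the inducible HSP90, was lower by -0.95 ± 0.16 on CTRL and stood at 0.01 on HFD, and the difference between diets passed the test (adjusted p = 0.00431). The heat shock element GAANNTTCNNGAA occurred in 2 of 17 members' promoters against 0.466% of all promoters, and neither of those 2 genes was called.

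Of 77 tested ribosomal protein genes 31 were lower, 2 higher and 44 not called, with a median of -0.11 and 72 of the 77 values below 0. No gene's groups were separate, and the count of lower genes was 18 without WT replicate 3, 19 without WT replicate 2, 8 without array weights, 10 with only the 16 CTRL arrays in the fit, and 6 and 0 within wash batches 1 and 2. The 2 higher genes on CTRL were 1 without Pparα hep-/- replicate 4 or without array weights, and 0 within each wash batch. On HFD 3 were lower and 2 higher, with a median of -0.0031.

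Interferon-stimulated genes are the antiviral program switched on by type I and II interferon. Of 35 tested genes 25 were higher on CTRL, none lower and 10 not called, with all 35 values above 0 and a median log2 fold change of 0.61. On HFD 21 were higher and none lower, 17 of them called on both diets, and none of the 35 differed between diets. In the whole-body knockout on CTRL, against the same WT mice, the median was 0.087.

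Rsad2 (viperin), an inhibitor of virus replication, ranged from 9.46 to 10.35 (median 9.85) in Pparα hep-/- mice and from 7.75 to 10.54 (median 8.49) in WT mice, a log2 fold change of 1.34 ± 0.24 (adjusted p = 5.00e-05). Ifit3, an antiviral RNA-binding protein partner, was higher by 1.32 ± 0.20 (adjusted p = 3.64e-06) and Ifit1, which binds foreign RNA caps, by 1.18 ± 0.25 (adjusted p = 0.000509, and 0.0569 without array weights). No gene of the list was free of overlap. Psmb9, an interferon-inducible subunit of the immunoproteasome counted with the proteasome list, was higher without overlap, by 1.21 ± 0.13 (adjusted p = 2.49e-09), and its effect was smaller on HFD, at 0.29.

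The count of higher interferon genes was 26 without both low-weight arrays, 10 without array weights, and 16 and 8 within wash batches 1 and 2, where the median differences of means were 0.59 and 0.48. Beside these, 5 of 19 tested Kupffer cell and macrophage markers were higher and none lower, with a median of 0.53. The count of higher markers was 2 without WT replicate 1, 3 without WT replicate 2, 3, 5 or 7, 2 without array weights, and 1 and 5 within wash batches 1 and 2. Their summed level ranged from 15.72 to 17.36 in Pparα hep-/- and from 15.004 to 16.66 in WT mice on the log2 scale, and no marker was below background on all 16 arrays. Their part in the interferon result was not tested.

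The interferon-stimulated response element, searched as GAAANNGAAA on either strand, occurred in 978 of 32851 promoters (2.98%) and in 16 of the 26 list members with a promoter sequence. Of those 16, 11 were called higher, as were 8 of the 10 without it. The 4 called members with the largest change are shown, with the element in capitals.
Rsad2, chr12:26456543-26456592, minus strand: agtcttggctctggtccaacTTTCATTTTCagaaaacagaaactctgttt
Ifit3, chr19:34583353-34583436, plus strand: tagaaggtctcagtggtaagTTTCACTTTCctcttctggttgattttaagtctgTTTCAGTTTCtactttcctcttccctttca
Ifit1, chr19:34640765-34640833, plus strand: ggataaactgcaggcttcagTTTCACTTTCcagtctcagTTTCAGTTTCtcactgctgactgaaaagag
Gbp3, chr3:142559979-142560034, plus strand: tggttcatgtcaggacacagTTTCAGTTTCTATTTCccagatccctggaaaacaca
All of these read on the opposite strand, Ifit3, Ifit1 and Gbp3 hold 2 copies each, and the copies in Gbp3 overlap.

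For the PPARα lists the same windows held little. The PPAR response element AGGTCANAGGTCA was in none of 127 members' promoters, and the relaxed form AGGNCANAGGNCA, which includes it, in 2, against 0.0335% and 0.338% of all promoters. These windows cover only the 250 bases before a start.

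**Figure D4:**
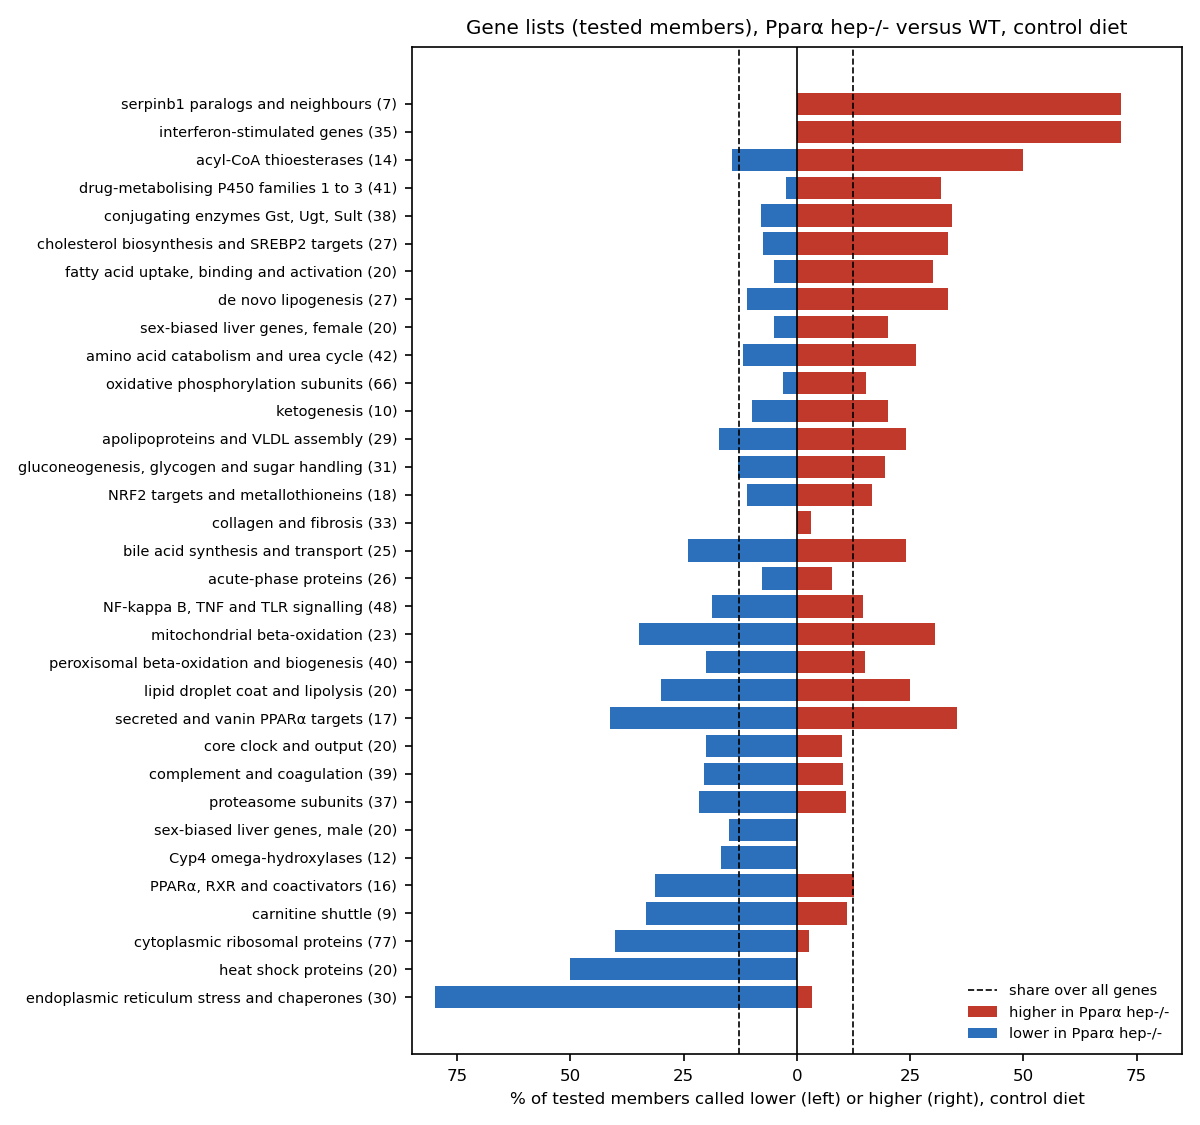
Share of the tested members of each gene list that was called lower (left, blue) or higher (right, red) in Pparα hep-/- mice on the control diet; the number of tested members stands behind each name, and the dashed lines mark the shares over all genes, 12.9% lower and 12.3% higher. ER chaperones reach 24 of 30 on the lower side and interferon-stimulated genes 25 of 35 on the higher side.

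Genes of cholesterol synthesis differed in direction between CTRL and HFD. Of 27 tested genes 9 were higher and 2 lower on CTRL, with a median log2 fold change of 0.45, and 24 were lower and 1 higher on HFD, with a median of -1.08. The effect of the deletion differed between diets for 21 of the 27, and for 19 without array weights. The 2 lower on CTRL were 0 without array weights or WT replicate 5, and 1 without WT replicate 2, 3, 4, 6 or 8 or Pparα hep-/- replicate 3, 4, 6 or 7. Within the CTRL mice the median difference of means was -0.11 in wash batch 1 and 0.76 in wash batch 2, and the counts were 2 higher and 5 lower against 12 higher and none lower, so the direction on CTRL rests on batch 2.

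Msmo1, a sterol demethylase, ranged from 13.33 to 15.10 (median 13.71) against 12.45 to 13.23 (median 12.86), without overlap, a log2 fold change of 1.23 ± 0.23 (adjusted p = 7.21e-05). Within wash batch 1 its value was 0.52 and did not pass the test (adjusted p = 0.143). On HFD it was lower, again without overlap, at -1.37. Sqle, squalene epoxidase, was higher by 1.28 ± 0.35 (adjusted p = 0.00520), with differences of means of 0.15 and 2.28 in wash batches 1 and 2.

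Insig2, which holds the sterol sensor in the ER and is a target of several nuclear receptors, was the gene of the list called higher on both diets, and 2 were lower on both. It was higher without overlap on CTRL, by 1.39 ± 0.23 (adjusted p = 1.40e-05), with a difference of means of 1.28 in both wash batches, and higher by 1.23 on HFD.

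**Figure D5:**
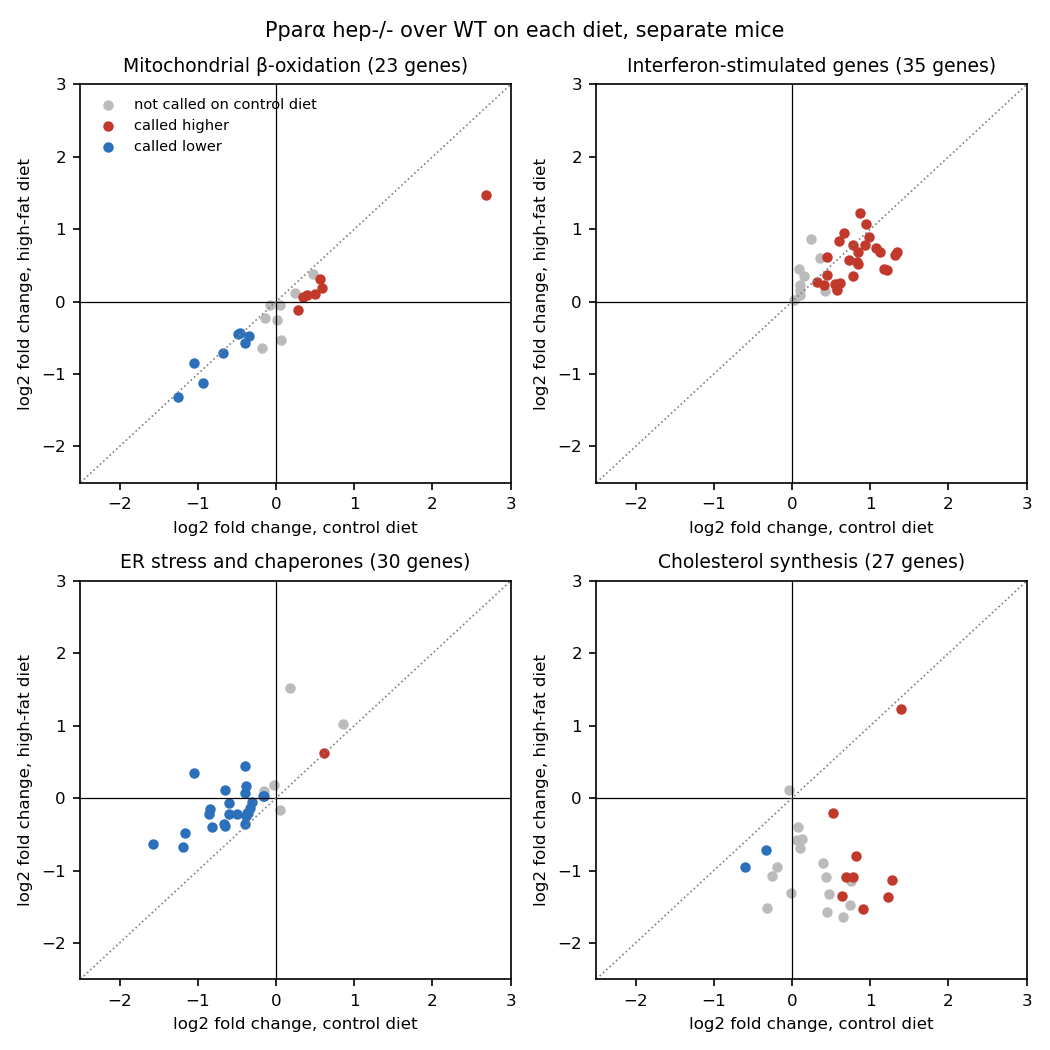
Log2 fold change of Pparα hep-/- over WT on the control diet (x axis) and on the high-fat diet (y axis), in separate mice, for the tested members of 4 gene lists; colours give the call on the control diet, and the dotted line marks equal values. The 8 β-oxidation genes called lower on the control diet lie below 0 on both diets, the 35 interferon genes lie above 0 on the control diet, and 24 of 27 cholesterol genes were called lower on HFD, against 4 of 30 in the ER list.

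In de novo lipogenesis 9 of 27 tested genes were higher and 3 lower, against 12.3% and 12.9% over all genes. Srebf1, the insulin-responsive regulator of the pathway, was lower by -1.08 ± 0.20 (adjusted p = 7.43e-05), with 14.01 to 15.24 against 14.80 to 16.32. Its target genes for fatty acid synthase and the Δ9 desaturase, Fasn and Scd1, had values of 0.24 ± 0.35 and 0.70 ± 0.42 and did not pass the test. For Fasn the sign turned with the wash batch, from -1.15 in batch 1 to 1.29 in batch 2, and the value was near 0 without WT replicate 7. Scd1 was called higher with only the 16 CTRL arrays in the fit (adjusted p = 0.0204). Acss2, which makes acetyl-CoA from acetate, was higher by 1.15 ± 0.23 on CTRL and lower by -0.63 on HFD (adjusted p of the difference = 0.000317). Within wash batch 1 Acss2 was at 0.52 and did not pass the test (adjusted p = 0.271). The list's median difference of means was -0.10 in wash batch 1 and 0.70 in batch 2, with 0 and 9 genes higher and 2 and 0 lower.

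Bile acid genes were called in both directions, 6 higher and 6 lower of 25, against 12.3% and 12.9% over all genes. Cyp8b1, the 12α-hydroxylase that sets the share of cholic acid, ranged from 7.51 to 11.60 (median 11.13) in Pparα hep-/- and from 8.22 to 10.72 (median 9.12) in WT mice, a log2 fold change of 1.75 ± 0.35 (adjusted p = 0.000180). Its lowest value is that of the low-weight replicate 1. On HFD Cyp8b1 was lower, at -0.98, and the difference between diets passed the test (adjusted p = 0.000226), but not without array weights (adjusted p = 0.109). Cyp7a1, the rate-limiting enzyme, had 0.18 ± 0.43 on CTRL, with values from -0.48 to 0.83 over the alternatives.

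Drug-metabolizing genes were higher more often than lower, 13 against 1 of 41 tested P450 and receptor genes and 13 against 3 of 38 conjugating enzymes. Over all genes 12.3% were higher and 12.9% lower. Nr1i3, the xenobiotic receptor CAR, was higher by 1.11 ± 0.16 (adjusted p = 1.62e-06). Sult1e1, the estrogen sulfotransferase, was higher by 2.79 ± 0.69 (adjusted p = 0.00204), with 8.66 to 11.27 against 5.62 to 11.72, and by 4.19 on HFD. Its value was 3.57 without WT replicate 1, 4.72 within wash batch 1 and 1.5 within batch 2, where it did not pass the test (adjusted p = 0.222). Gstt3, a glutathione transferase, was higher by 1.27 ± 0.28.

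Clock genes give the state of the daily rhythm at death. Of 20 tested genes 4 were lower and 2 higher (30% called), near the 25.2% called over all genes. Within wash batches 1 and 2 the lower genes were 2 and 0, and the higher ones 1 and 2. Nr1d1 (REV-ERBα), a repressor in the core loop, was lower by -1.63 ± 0.30 (adjusted p = 7.66e-05), and Arntl (BMAL1), which it represses, higher by 1.58 ± 0.36 (adjusted p = 0.000907). Both ranges overlapped between genotypes, at 6.93 to 8.50 against 8.17 to 10.20 for Nr1d1 and 7.04 to 8.58 against 5.99 to 7.05 for Arntl. The part of the rhythm in the ER, heat shock and cholesterol results was not tested.

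Of 33 tested collagen and fibrosis genes 1 was higher and none lower on CTRL, against 26 higher on HFD, and of 48 genes of NF-kappa B, TNF and Toll-like receptor signalling 7 were higher and 9 lower, against 25 higher and 3 lower on HFD. The effect differed between diets for 2 of the 33 and 7 of the 48, and for none of either list without array weights. The 7 higher NF-kappa B genes on CTRL were 4 without WT replicate 4 or 7, 2 without array weights and 1 within each wash batch. The medians of both lists on CTRL were 0.29 and 0.13.

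Among the markers of other cells, 1 of 12 stellate cell and 3 of 11 endothelial genes were higher, and none of the 8 proliferation, 8 erythroid and 5 B cell genes was called. Over all genes 12.3% were higher and 12.9% lower. Neutrophil genes had 1 of 10 and T and NK cell genes 1 of 11 in each direction, cholangiocyte and adipocyte genes 1 of 7 and 1 of 6 higher, and acinar genes 1 of 6 lower. The erythroid genes, 5 of which were called higher with only the 16 CTRL arrays in the fit, had a median of 0.67, with a summed level of 17.95 to 19.07 against 17.37 to 18.76. Of the 9 hepatocyte markers 3 were lower, with a median of -0.082 and a summed level of 21.00 to 21.05 in Pparα hep-/- against 20.96 to 21.10 in WT mice. The 3 lower markers were 1 without array weights and 0 within each wash batch.

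The counts of the remaining lists stand against 12.3% of all genes called higher and 12.9% called lower. Of the 16 tested genes of PPARα, RXR and their coactivators 5 were lower and 2 higher, and of 20 genes of fatty acid uptake, binding and activation 6 were higher and 1 lower. Amino acid catabolism and the urea cycle had 11 of 42 higher and 5 lower, oxidative phosphorylation 10 of 66 higher and 2 lower, apolipoproteins 7 of 29 higher and 5 lower, gluconeogenesis and sugar handling 6 of 31 higher and 4 lower, and ketogenesis 2 of 10 higher and 1 lower. Complement and coagulation had 8 of 39 lower and 4 higher, the proteasome 8 of 37 lower and 4 higher, acute-phase proteins 2 of 26 in each direction and NRF2 targets 3 of 18 higher and 2 lower. Called in all were 30.8% of complement, 15.4% of acute-phase, 27.8% of NRF2 and 18.2% of oxidative phosphorylation genes, against 25.2% over all genes. Within wash batches 1 and 2 the lower complement genes were 0 and 4 and the lower proteasome genes 7 and 0. The higher genes of oxidative phosphorylation were 5 and 0 there. Of 20 male-biased liver genes 3 were lower, and of 20 female-biased ones 4 were higher and 1 lower. Of the 7 genes at the Serpinb1 locus 5 were higher on both diets.

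Several of these counts moved by more than 1.5 times when 1 array was left out. The 8 lower complement genes were 4 without WT replicate 7 and 5 without WT replicate 1 or Pparα hep-/- replicate 2 or 8, and the 4 higher ones were 1 without WT replicate 3 or 5 and 2 without WT replicate 1, 2 or 7. The 8 lower proteasome genes were 2 without Pparα hep-/- replicate 4 and 3 to 5 without Pparα hep-/- replicate 7 or 8 or WT replicate 1, 2, 3, 4, 5, 6 or 8. The 7 higher apolipoprotein genes were 3 without WT replicate 1 and 4 without WT replicate 2 or Pparα hep-/- replicate 8, and the 10 higher genes of oxidative phosphorylation were 6 without WT replicate 2 or 3 or Pparα hep-/- replicate 8. The 3 higher NRF2 targets were 1 without WT replicate 1 or Pparα hep-/- replicate 8, 6 without WT replicate 8 and 7 without WT replicate 6. The 5 lower amino acid genes were 3 without Pparα hep-/- replicate 2 or WT replicate 8, and the 3 lower male-biased genes were 1 without WT replicate 1, 2, 3 or 7 or Pparα hep-/- replicate 2, 4 or 8. The 2 lower acute-phase genes were 4 without WT replicate 5 and 1 without WT replicate 1, 7 or 8 or Pparα hep-/- replicate 2. The 2 lower NRF2 targets were 1 without WT replicate 3 or 8 or Pparα hep-/- replicate 4, 6 or 7, and the 2 lower genes of oxidative phosphorylation were 4 without Pparα hep-/- replicate 3. The single genes called higher in the carnitine, collagen, ER, cholangiocyte, neutrophil and T and NK cell lists, and lower in the P450, acinar, female-biased and T and NK cell lists, each dropped to 0 without at least 1 of the arrays.

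Some calls of named genes were lost in a single wash batch, each with its sign kept. Within batch 1 these were Ppara, Igfbp2, Fitm1, Acot1, Acot2, Derl3, Slx1b, Pparg, Amacr, Msmo1, Acss2, Sqle and Arntl, and within batch 2 Ppara, Igfbp2, Fitm1, Acot1, Acot3, Derl3, Mfsd2a, Srebf1, Cyp8b1, Creld2, Sult1e1, Ifit1, Nr1d1 and Hspa5.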

How the data were processed

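RNA of 48 livers was hybridised to 1-colour Agilent arrays, 1 mouse per array and 8 per group. The authors deposited Feature Extraction 10.10.1.1 output, whose intensities, per the file headers, are linear; the median pixel intensity was used, without background subtraction. The authors' deposited log2 table had been filtered, corrected for wash batch and quantile normalized, and served as an alternative. Outlier spots were dropped, spots of a probe averaged and log2 taken. Of 56605 probes 33321 were kept, those well above background in 4 or more of the 8 mice of any group, and quantile normalized. limma 3.58.1 (R 4.3.3) fitted group means over all 48 arrays together with wash batch, with array weights, and Benjamini-Hochberg adjustment was made within each contrast. The 193 missing values were left out of their probes' fits. The fit was tested on simulated data. A gene is represented in the lists by 1 probe, the brightest; 22728 probes were named through RefSeq accessions, the others by the array's own names. Probe positions are mm9, promoters GRCm38.p6.

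Named genes are Ppara, the 12 largest separated differences per direction, the leading called members of lists (at most 4 per direction) and the heads of pathways; some of these are not reported here. Hspa5, Syvn1, Pdia6, Gbp3 and Cdc42ep1 were added after their values were seen. Members and lists were chosen with earlier results of these data known. The labels do not say more of the animals than their genotype, diet and age, and tests measure the spread between mice. The number of arrays and the background limit precision. Alternatives covered array weights, background correction, filters, batch terms, single batches and each array left out.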

Additional observations from a re-analysis of the deposited data

Results flagged for a closer look

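In 15 of 150 groups of 8 mice 1 mouse stood apart, with a gap to its nearest neighbour, as a share of the group's range, above Dixon's critical value; chance flags about 1 in 20 groups. In 10 of the 15 it was 1 of the 2 arrays of low weight. Pparα hep-/- replicate 1 was lowest for both Ppara probes (gap over range 0.662 and 0.697), Cyp8b1 (0.760), Gstt3 (0.644) and Nr1i3 (0.673), and highest for Fgf21 (0.5262), Acot2 (0.534), Amacr (0.542), Cdpf1 (0.649) and AK035950 (0.878). Pparα hep-/- replicate 5 was lowest for Fabp1 (0.710) and replicate 3 for Sult1e1 (0.559). WT replicate 1 was lowest for Angptl4 (0.584) and highest for AK035950 (0.578), and WT replicate 5 was highest for Eci2 (0.538).

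The effect of the deletion differed between diets, by limma's interaction term, for 23 probes of named genes, given as HFD minus CTRL on the log2 scale. It was more negative on HFD for both Ppara probes (-0.42 and -0.58), Ehhadh (-0.72), Cyp4a10 (-2.30), Fitm1 (-1.66), Acot1 (-2.13), Acot2 (-1.45), Cyp8b1 (-2.73), Nr1i3 (-0.71), Gstt3 (-1.50) and Psmb9 (-0.92). The same held for the sterol and acetate genes Msmo1 (-2.59), Sqle (-2.41) and Acss2 (-1.79), and for Serpinb1a (-2.38), Serpinb1c (-1.34), Fam89a (-2.29) and Srgap3 (-2.15). It was more positive for the chaperones Hspa5 (0.53), Hsph1 (0.85) and Hsp90aa1 (0.96), and for Cdpf1 (0.61) and AK035950 (2.93). For Serpinb1c the WT mice on CTRL, and for AK035950 all but 1 of the Pparα hep-/- mice on CTRL, were not well above background, so the sizes of these differences are not measured. Without array weights 16 of the 23 no longer passed the test, and all 23 kept their sign.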

How the results depend on the processing

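Of 62 called probes of named genes, 60 to 62 kept their call and direction under each alternative over both wash batches, and 49 and 48 within batch 1 and batch 2. The cause of the changes was not tested, but a single batch holds fewer mice. Within batches 1 and 2, 3682 and 3049 probes were called, 1772 and 1545 higher, 1910 and 1504 lower, 87 and 55 within 10 Mb of Ppara, 544 and 1137 in the same direction on HFD, and 1319 and 166 differed between diets. The brighter Ppara probe had -0.42 and -0.40 there (adjusted p = 0.0608 and 0.0644). Without array weights 2477 probes were higher, 1353 shared direction with HFD and 298 differed between diets; without both low-weight arrays as well, an alternative chosen after seeing the data, the last 2 were 1769 and 972. Without the filter they were 1690 and 1226. The count differing between diets was 2185 without the batch term and 2122 with slide as a block. The higher share of calls was 48.3% with processed signals, 47.1% without the filter, 47.4% with 16 arrays, 48.5% without the batch term, and 48.1% and 50.7% in the batches. Leaving out 1 array gave 6581 to 8911 calls, 2989 to 3983 higher, 3536 to 4928 lower, 44.7% to 46.6% higher, 128 to 159 near Ppara, 2243 to 2994 shared with HFD and 2259 (without WT replicate 3) to 4518 differing between diets. Replicate numbers did not pair the mice (r from -0.456 to 0.236, 3 of 8 over 0.1, none best with its own number); with a replicate block 7482 probes were called and 2276 differed between diets.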
